A study of Caenorhabditis elegans with 2 samples.

Results

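The 8 genes cct-1 to cct-8 of Caenorhabditis elegans, which encode the subunits of the cytosolic chaperonin CCT, were examined for binding of the transcription factor LSY-2. All 8 were located by name among the 19973 nuclear protein-coding genes of the Ensembl annotation of WBcel235 (ce11). The genes were chosen by measured values, since the regions at cct-8 and cct-1 were known to stand near the top of the list, so their regions are given as a description with no test. LSY-2, a C2H2 zinc finger protein known for its part in the left/right asymmetry of a pair of taste neurons, was mapped by chromatin immunoprecipitation and sequencing (ChIP-seq) in whole L2 larvae of mixed sex. The larvae were of strain OP240, which is unc-119(ed3) and carries the insertion wgIs240 with an eGFP fusion of LSY-2. There was 1 group with 2 biological replicates from this strain and no contrast between conditions. Which promoter drives the fusion is not given in the labels, and in whole larvae the cells in which a region was bound cannot be told apart.

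CCT, also called TRiC, is a double ring in which each ring holds a copy of every one of its paralogous subunits. It takes up newly made actin and tubulin, which the co-chaperone prefoldin can hand to it, and folds them in its cavity with the use of ATP. In the yeast complex the orthologues of cct-1, cct-2, cct-4 and cct-5 make up the side of the ring that binds ATP more strongly, and those of cct-3, cct-6, cct-7 and cct-8 the other side.

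A region here is an interval that the authors listed, its summit is the position marked within it, and its signal is the caller's own value. How that value is computed from the reads and the control is not defined in the labels or files, so ratios of signal are ratios of this value and not of bound protein. A thresholded region is 1 of the 2182 that the authors kept after a test of reproducibility between replicates (IDR, irreproducible discovery rate). Ordered by signal over both replicates, the kept regions were exactly the top 2182, and 2154 of them had a summit in each replicate. A thresholded region therefore stands above a cut in signal, which does not by itself show that this region was reproducible. The lists of 30000 regions, for each replicate and for both together, hold peaks and background by design, so a region there need not be a site of enrichment. Regions were read for each gene from 2000 bp upstream of the annotated 5′ end to the 3′ end, and ranks were counted from 1 at the highest signal. The numbers of reads behind the regions are not given, so depth is unknown. In many worm genes a leader RNA is spliced onto the transcript, so the annotated 5′ end need not be the start of transcription.

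The sequence under the strongest summit of each gene is shown because the 8 genes differ there in the words found at other LSY-2 regions. The plus strand of ce11, from the RefSeq copy of the assembly, is given with the summit in the middle, over 201 bp for cct-8 and cct-1, which have the highest signal, and over 101 bp for the others. Capitals mark, on either strand and within 50 bp of the summit, the words described further on: the 5 most enriched at all thresholded summits, the 5 most enriched at the 200 strongest, and TCTCNNCAC.
cct-8, chrIV:1094261-1094461: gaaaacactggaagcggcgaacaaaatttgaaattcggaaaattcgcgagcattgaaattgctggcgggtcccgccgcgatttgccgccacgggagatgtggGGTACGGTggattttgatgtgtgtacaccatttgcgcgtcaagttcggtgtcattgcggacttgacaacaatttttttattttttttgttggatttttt
cct-1, chrII:8185114-8185314: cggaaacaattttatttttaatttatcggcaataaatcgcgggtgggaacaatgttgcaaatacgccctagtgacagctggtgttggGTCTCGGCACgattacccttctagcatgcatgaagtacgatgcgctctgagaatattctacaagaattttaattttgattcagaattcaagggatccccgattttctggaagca
cct-4, chrII:8283392-8283492: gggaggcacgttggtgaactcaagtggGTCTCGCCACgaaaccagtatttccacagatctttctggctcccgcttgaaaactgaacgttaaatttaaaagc
cct-6, chrIII:5855923-5856023: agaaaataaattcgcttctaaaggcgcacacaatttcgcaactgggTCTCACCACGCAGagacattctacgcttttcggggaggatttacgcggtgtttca
cct-5, chrIII:4508526-4508626: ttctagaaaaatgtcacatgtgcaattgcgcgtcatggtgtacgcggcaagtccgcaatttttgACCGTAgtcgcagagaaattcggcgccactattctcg
cct-2, chrII:8927448-8927548: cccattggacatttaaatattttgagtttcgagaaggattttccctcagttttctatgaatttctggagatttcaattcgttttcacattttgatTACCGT
cct-3, chrII:2232560-2232660: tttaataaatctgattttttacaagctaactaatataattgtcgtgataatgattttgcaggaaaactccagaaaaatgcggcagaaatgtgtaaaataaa
cct-7, chrV:1871869-1871969: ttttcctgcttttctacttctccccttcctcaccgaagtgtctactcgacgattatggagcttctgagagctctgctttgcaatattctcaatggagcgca
The cct-1, cct-4 and cct-6 sequences share TCTCNNCAC, cct-8 and cct-5 share ACCGTA, which in cct-8 stands on the minus strand, and cct-3 and cct-7 hold no capital.

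Of the 8 genes, 6 had a thresholded summit: cct-1, cct-3, cct-5, cct-6, cct-7 and cct-8. By the same rule 14.0% of all nuclear protein-coding genes had one (2789 of 19973). The same 6 had a summit in the promoter window, which began 1000 bp before the 5′ end and closed 200 bp after it, against 9.85% of all genes (1968 of 19973). The exceptions were cct-2 and cct-4, whose strongest regions lay below the threshold.

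The 6 genes fell into a pair of very high signal and 4 of ordinary signal. The strongest region of cct-8 had a signal of 5137 and rank 7, and that of cct-1 had 2975 and rank 12, whereas the median of the thresholded list was 83.4. The signal of cct-8 was 1.73 times that of cct-1, and that of cct-1 was 25.7 times that of the next gene, cct-3. Between cct-1 and cct-3 stood 711 regions of other loci. The 4 genes cct-3, cct-6, cct-5 and cct-7 followed at 116, 101.5, 101.2 and 87.3, with ranks 724, 859, 862 and 1029, so all 6 lay in the upper 50% of the list and the highest of the 4 was 1.33 times the lowest. Together cct-8 and cct-1 held 2.13% of the summed signal of the 2182 regions.

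**Figure D1:**
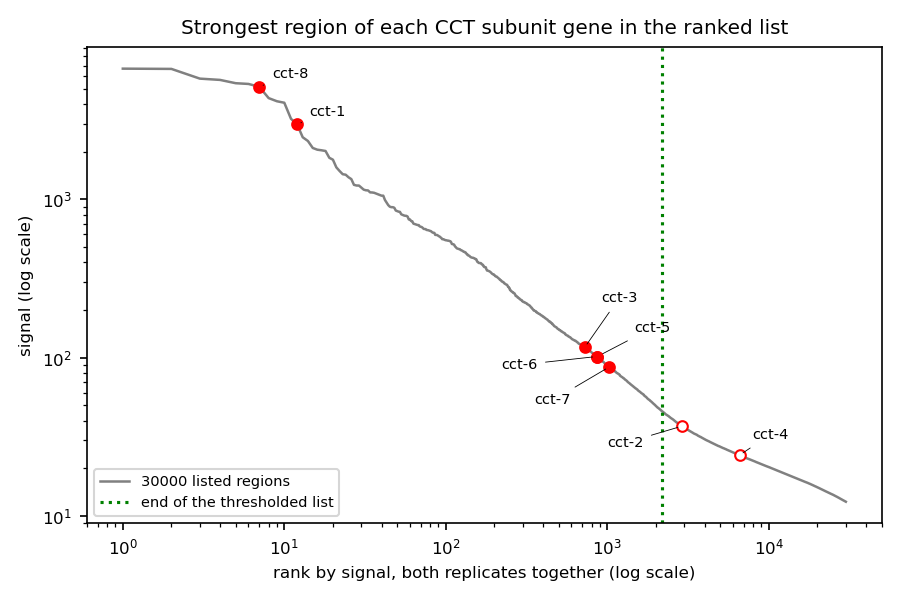
Signal of the 30000 regions listed for both replicates together against their rank (both axes logarithmic; grey line), with the strongest region of each CCT gene as a red point, filled where thresholded and open where not; the green dotted line is the end of the thresholded list at rank 2182. The points for cct-8 and cct-1 stand at ranks 7 and 12, those for cct-3, cct-6, cct-5 and cct-7 between ranks 724 and 1029, and those for cct-2 and cct-4 past the line.

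Among the subunits of the side that binds ATP more strongly in yeast, cct-1 had the highest signal. The gene lies on the plus strand at chrII:8185443-8187601, and its region, chrII:8185014-8185419, had its summit 229 bp upstream of the 5′ end. Its signal was 1815 in replicate 1 and 1170 in replicate 2, at rank 12 in each. The region stood alone: the next region of cct-1, in an intron, had a signal of 31.2, which is 95.2 times lower.

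The gene cct-5, on the minus strand at chrIII:4499188-4508114, was the only one of the 8 with more than 1 thresholded region. Its strongest, chrIII:4508394-4508757, had its summit 462 bp upstream and a signal of 45.2 in replicate 1 (rank 1214) and 54.5 in replicate 2 (rank 619). The other two lay in introns, with summits 2165 bp and 3488 bp downstream of the 5′ end and signals of 62.7 (rank 1537) and 46.0 (rank 2171) over both replicates. These intronic regions were present in each replicate, the first with a signal of 34.0 in replicate 1 and 34.9 in replicate 2 and the second with 25.3 and 20.8. The second was the CCT region nearest above the threshold, which fell at a signal of 45.8.

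The nearest CCT region below the threshold was that of cct-2, on the plus strand at chrII:8927741-8929815. It was chrII:8927316-8927679, with its summit 243 bp upstream, a signal of 36.8 and rank 2894. Its −log10 q-value was 2.19, where all 6 thresholded strongest regions, like 97.6% of all thresholded regions, were at the list's maximum of 3.63. Its signal was 18.4 in replicate 1 (rank 4458) and 21.9 in replicate 2 (rank 2019), so it was inside the 2182 strongest regions of replicate 2 but not of replicate 1. The fourth gene of this side, cct-4, on the plus strand at chrII:8283667-8285711, had the lowest signal of the family. Its region, chrII:8283260-8283623, had its summit 225 bp upstream, a signal of 24.2, rank 6591 and a −log10 q-value of 0.61. Replicate 1 listed it at 18.9 (rank 4211) and replicate 2 listed no region at cct-4. These values come from the list that holds background: all 8 CCT genes had a region in it, as did 63.0% of all protein-coding genes (12584 of 19973), so a listed region at cct-2 or cct-4 is not by itself a sign of binding.

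On the other side of the ring, cct-8 had the highest signal of the family. The gene lies on the minus strand at chrIV:1087108-1093920, and its region, chrIV:1094122-1094579, had its summit 441 bp upstream. The signal was 3142 in replicate 1 and 2007 in replicate 2, at rank 7 in each. The next region in the window of cct-8, of 10 listed, had a signal of 29.2, which is 176 times lower.

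The region of cct-3 was the narrowest and the farthest from its gene. The gene lies on the plus strand at chrII:2233540-2243539 and the region at chrII:2232585-2232735, a width of 151 bp against a median of 364 bp, with its summit 930 bp upstream. Its signal was 45.8 in replicate 1 (rank 1196) and 40.8 in replicate 2 (rank 925). Replicate 1 had a stronger region next to it, with a signal of 81.6 at rank 575 and its summit at position 2232445 in the untranslated region of the neighbour F54A3.6; neither replicate 2 nor the list for both replicates held a summit of its own there.

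The genes cct-6 and cct-7 each had a single thresholded region of ordinary width. For cct-6, on the minus strand at chrIII:5853530-5855687, the region chrIII:5855791-5856154 had its summit 286 bp upstream and a signal of 60.8 in replicate 1 (rank 847) and 34.2 in replicate 2 (rank 1158). For cct-7, on the plus strand at chrV:1872246-1875505, the region chrV:1871737-1872100 had its summit 327 bp upstream and a signal of 61.1 in replicate 1 (rank 843) and 28.2 in replicate 2 (rank 1462). Both were higher in the order of replicate 1 than in that of replicate 2.

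**Figure D2:**
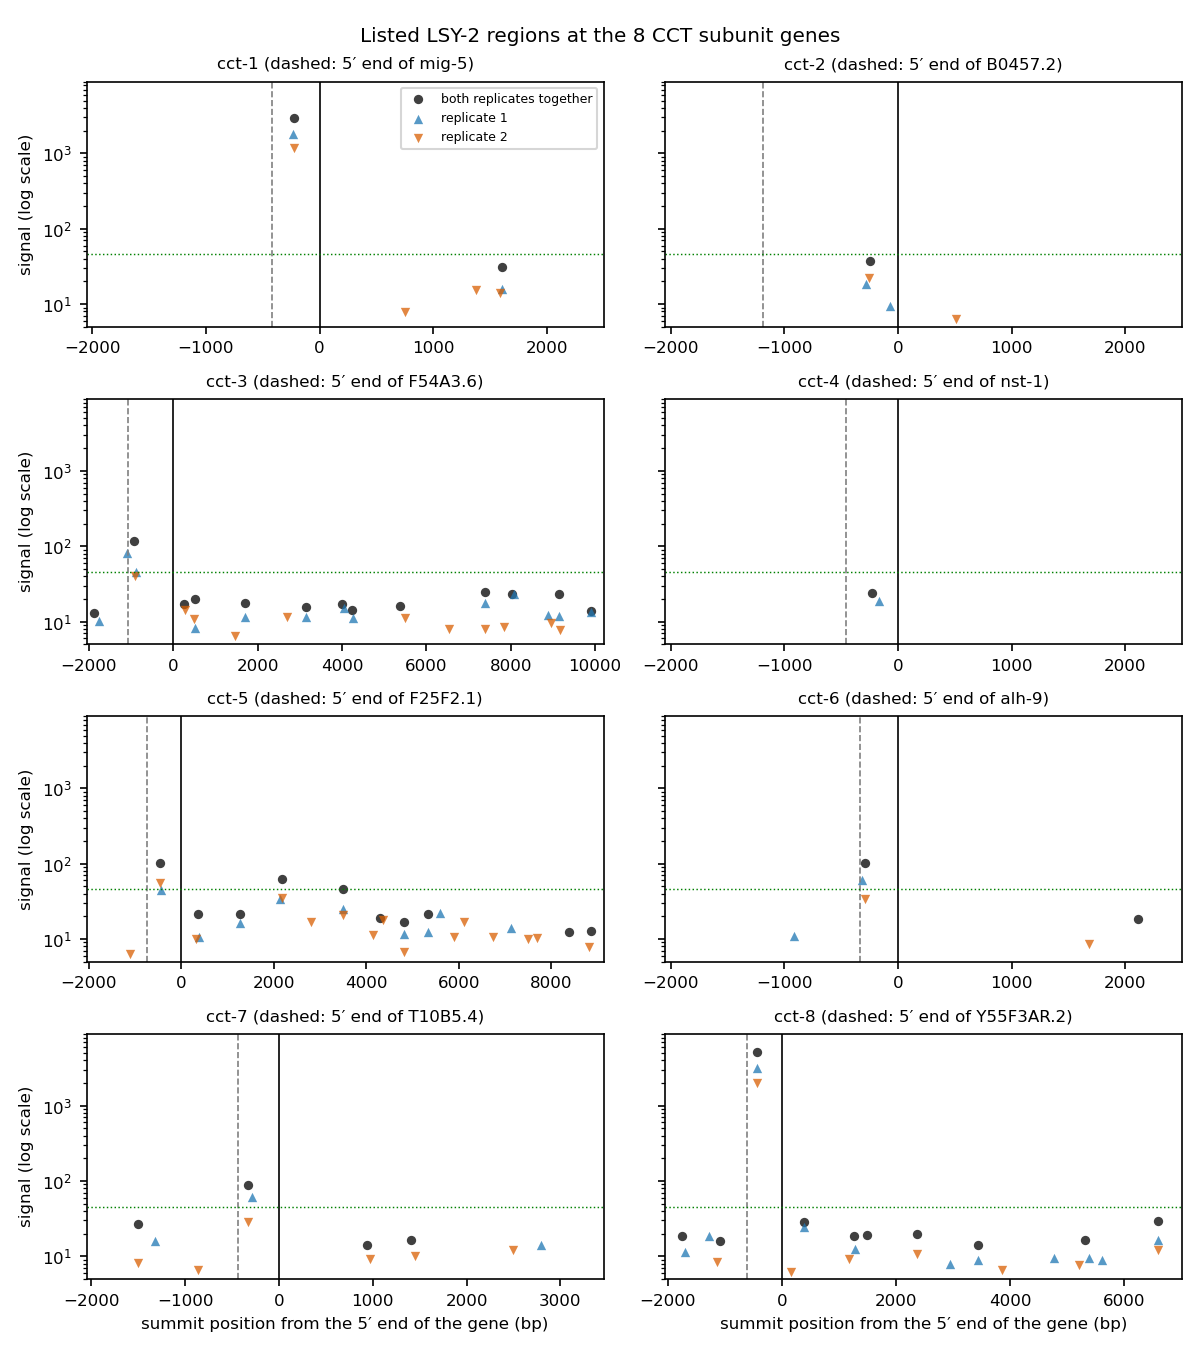
Every region listed for each CCT gene, by the position of its summit from the annotated 5′ end (bp; solid line at 0, upstream to the left) and its signal (logarithmic), with circles for both replicates together and triangles for each replicate on its own scale; the dashed line is the 5′ end of the neighbour and the green dotted line the lowest thresholded signal over both replicates, 45.8. The strongest circle lies upstream of the 5′ end in all 8 panels, and only cct-5 has circles above the green line inside the gene.

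Away from the strongest summits most listed regions were weak. In the windows of the genes, over both replicates, 13 regions were listed for cct-3, 10 each for cct-5 and cct-8, 4 for cct-7, 2 each for cct-1 and cct-6, and 1 each for cct-2 and cct-4. The genes with the most regions were also the longest, at 10000 bp for cct-3, 8927 bp for cct-5 and 6813 bp for cct-8. Apart from the strongest regions and the intronic pair of cct-5, their signals were at most 31.2, below the threshold of 45.8.

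The replicates gave the same order for the strong pair and opposite orders for the other 4. In replicate 1 the order from high to low was cct-7, cct-6, cct-3 and cct-5, and in replicate 2 it was cct-5, cct-3, cct-6 and cct-7. The differences in signal among these 4 genes are therefore within the spread between replicates, while each of them was below cct-1 and cct-8 in both. The ratio of replicate 1 to replicate 2 had a mean of 0.52 ± 0.50 on the log2 scale (SD over the 6 regions), and its median over the 2154 thresholded regions found in both was 0.52 with an SD of 0.55. This ratio contains the unmatched scale of the lists. By gene it was 0.65 for cct-8, 0.63 for cct-1, 0.17 for cct-3, 0.83 for cct-6, −0.27 for cct-5 and 1.12 for cct-7, so the strong pair lay near the median and the weaker genes to either side. The summits of the replicates were 1 bp apart at cct-8, 4 bp at cct-1, 2 bp at cct-3, 8 bp at cct-5, 34 bp at cct-6 and 37 bp at cct-7, against a median of 20 bp over all thresholded regions.

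**Figure D3:**
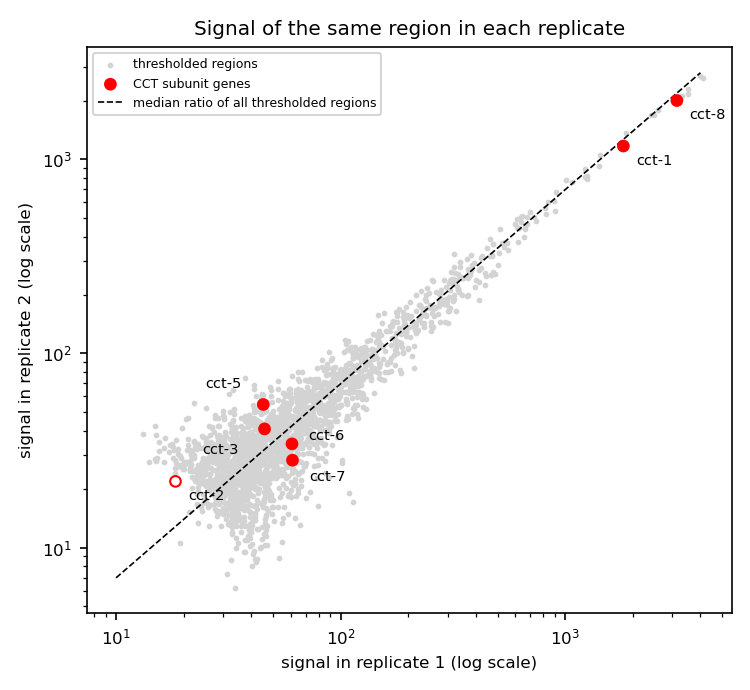
Signal of the same region in replicate 1 and in replicate 2 (both axes logarithmic), with thresholded regions in grey, the CCT genes in red and the open circle for cct-2, which was not thresholded; the dashed line is the median ratio of 1.43. The points of cct-8 and cct-1 lie near the line at the upper end, cct-5 and cct-3 lie above it, cct-6 and cct-7 below it, and cct-4 is not drawn because replicate 2 listed no region there.

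All 8 genes stand head to head with a neighbour, and their summits lay between the pair. A divergent protein-coding gene with its 5′ end within 2000 bp upstream was present for 8 of 8 CCT genes, for 27.8% of all genes (5562 of 19973) and for 61.5% of genes with a promoter summit (1211 of 1968). The neighbours were mig-5, a Dishevelled protein of Wnt signalling, for cct-1, F54A3.6 for cct-3, F25F2.1 for cct-5, the aldehyde dehydrogenase gene alh-9 for cct-6, T10B5.4 for cct-7 and Y55F3AR.2 for cct-8. Below the threshold they were B0457.2 for cct-2 and nst-1, which encodes nucleostemin, for cct-4. Each of the 6 strongest thresholded summits was in the promoter window of both genes of its pair, so these regions cannot be assigned to the CCT gene alone. The intronic summits of cct-5 were in the promoter window of neither gene of that pair.

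For 0 of the 6 genes was the CCT gene's own 5′ end the one nearest to its strongest summit. The share was 59.1% of all genes with a thresholded summit (1648 of 2789) and 69.4% of those with a promoter summit (1365 of 1968). These shares include genes with no divergent neighbour to compete for the summit. Such a neighbour was present for all 6 CCT genes and for 61.5% of genes with a promoter summit, so the sets are not matched. The summit was 191 bp from mig-5 and 229 bp from cct-1, which are 420 bp apart. It was 180 bp from Y55F3AR.2 and 441 bp from cct-8, 140 bp from F54A3.6 and 930 bp from cct-3, and 279 bp from F25F2.1 and 462 bp from cct-5. The last pairs were alh-9 at 45 bp with cct-6 at 286 bp and T10B5.4 at 112 bp with cct-7 at 327 bp. The summit of cct-1 was thus nearly midway, 19 bp from the middle, while that of cct-3 lay far to the neighbour's side. The count depends on the annotation: RefSeq places the 5′ end of alh-9 at 1236 bp from the summit, which makes cct-6 the nearest gene there and the count 1. At cct-2 and cct-4, below the threshold, the own 5′ end was the nearer one, at 243 bp against 947 bp and at 225 bp against 234 bp. Noncoding RNA genes were also annotated beside a pair of these summits, T10B5.13 at 61 bp from that of cct-7 and Y55F3AR.4 at 152 bp from that of cct-8.

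**Figure D4:**
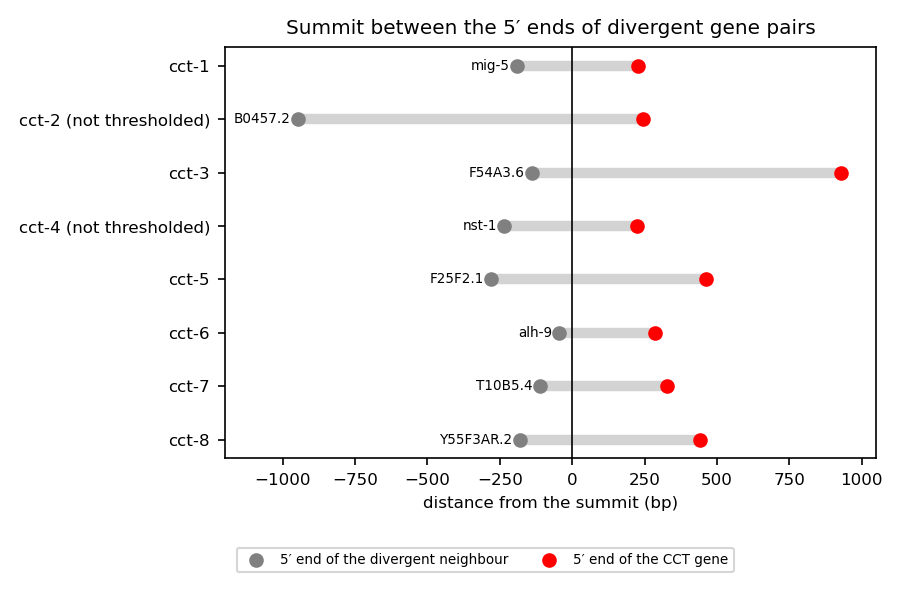
Distance (bp) from the strongest summit of each CCT gene, at 0, to the 5′ end of the CCT gene (red) and of its divergent neighbour (grey), with the bar spanning the sequence between the pair. The grey point is the nearer one for the 6 thresholded genes, and the red one for cct-2 and cct-4.

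The genes with the promoter region nearest to that of each subunit in the signal order were of many kinds. Regions in the promoter window of no protein-coding gene were passed over. Next to cct-8 stood the region shared by the ribosomal protein gene rpl-15 and K11H12.8, with a signal of 5356 at rank 6, and that shared by cap-2, an actin capping protein, and gmps-1 with 4359 at rank 8. Next to cct-1 stood lin-9, a DREAM complex gene, with 3225 at rank 11 and serp-1.1 with 2466 at rank 13. Around the weaker subunits the steps were small. F37F2.2 stood above cct-3 at 116.2 (rank 723), and mdt-6, Y57E12AL.1 and Y57E12AL.6 below it at 115.4 (rank 727). Around cct-6 and cct-5 these genes were F33H1.4 at 101.7 (rank 857), F13C5.2 between them at 101.3 (rank 861) and ndus-8 at 101.1 (rank 863). Those of cct-7 were sftb-6, luc-7L3 and C50D2.10 at 87.3 (rank 1027) and dyci-1 at 87.1 (rank 1031). This likeness is of 1 value, the signal over both replicates.

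Among the partners of CCT, 5 of 6 prefoldin genes and 6 of 21 actin and tubulin genes, its substrates, had a thresholded summit, where 14.0% of all genes had one. Of the 6 prefoldin genes 5 had a thresholded summit (83.3%), with a median signal of 192 against 109 for the 6 CCT genes, and the exception was pfd-2. The strongest was pfd-1 at 746 (rank 59), followed by pfd-6 at 218, pfd-3 at 192 and pfd-5 at 78.3, so no prefoldin gene reached the level of cct-1. The summit of pfd-1 was nearer to F01G4.6, at 286 bp. Of 21 actin and tubulin genes 6 had a summit (28.6%), above the share of all genes, and 3 had one in the promoter window (14.3%, against 9.85% of all genes). The α-tubulin gene tba-1 had 1221 (rank 29), but the summit stood at −1056 bp from its own 5′ end and 45 bp from the 5′ end of cox-5B. The α-tubulin gene tba-2 had 395, the β-tubulin gene tbb-2 had 105 and tba-7 had 65.8.

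Of the chaperone lists, only the heat-inducible list was near the share of all genes. Of 12 other cytosolic chaperone and co-chaperone genes 11 had a thresholded summit (91.7%), the exception being daf-41. The highest were hsp-90 at 699, with its summit in an intron, hsp-110 at 424, hsp-1, the constitutive Hsp70, at 395 and the J-domain gene dnj-13 at 296. Of 9 organelle chaperone genes 7 had one (77.8%), led by hsp-60, the mitochondrial chaperonin, at 898 (rank 45), and followed by the endoplasmic reticulum chaperones hsp-3 at 373, enpl-1 at 304 and crt-1 at 289. Several of these summits lay nearer to another gene: that of hsp-60 was 205 bp from Y22D7AL.10, that of hsp-90 was 293 bp from C47E8.4, and that of hsp-110 was 189 bp from the proteasome gene rpn-3, for which the same region was counted. Of the 9 genes of the heat-inducible list only the small heat shock gene hsp-12.3 had a summit (11.1%). The summit had a signal of 152 and stood 703 bp downstream of the 5′ end of hsp-12.3. The list was drawn by gene symbol, so its name is only a label. Whether its genes, hsp-12.3 among them, respond to heat was not tested. For other large complexes the shares were 89.6% of ribosomal protein genes (69 of 77) and 69.7% of proteasome genes (23 of 33), each to be read against the 14.0% of all genes. The highest signal in any of the 4 chaperone lists, prefoldin included, was that of hsp-60, below those of cct-8 and cct-1.

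**Figure D5:**
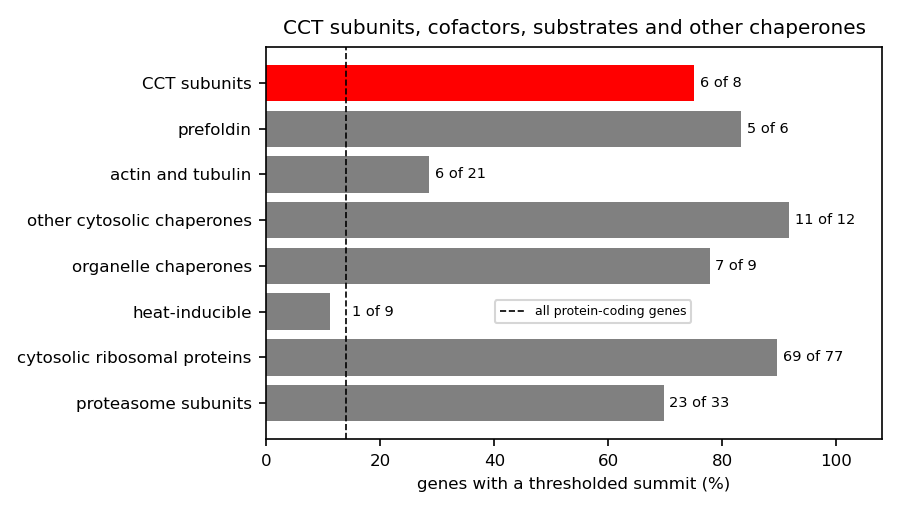
Percent of the genes of each list with a thresholded summit from 2000 bp upstream of the 5′ end to the 3′ end, with the number of genes beside each bar and the share of all protein-coding genes, 14.0%, as a dashed line. The CCT bar, 6 of 8, stands near those of prefoldin, the other chaperones outside the heat-inducible list, ribosomal and proteasome genes, and the actin and tubulin bar is lower than these and above the dashed line.

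Of the 6 thresholded CCT genes 1 held a leading word of 6 bases from the other LSY-2 summits, and 5 held a leading word of 5 bases. Within 50 bp of the summits of the 2174 thresholded regions outside the CCT genes, 5 words of 6 bases had the largest difference in share from windows 300 bp to each side, counted on both strands. The word GAGAGA was in 25.4% of summits and 6.78% of side windows, and AGAGAG, which overlaps it, was in 22% of summits and 5.17% of side windows. The word GACGCA was in 17.8% of summits and 2.37% of side windows, the overlapping word ACGCAG in 17.1% of summits and 2.05% of side windows, and the word CGTCTC in 18.2% of summits and 3.36% of side windows. At least 1 of the 5 was in 46.8% of these regions. At the CCT genes only cct-6 had one, ACGCAG at 6 bp from the summit, which is 1 of 6 thresholded genes and 1 of all 8. With words of 7 bases the count was also 1 of 6, where 25.2% of the other regions held one. With words of 5 bases it was 5 of 6, where 84.7% of the other regions held one. Of those words, GCGCA was at 5 of the CCT genes and in 32.1% of the other summits, and the rest were at 1 or 2 CCT genes each, AGAGA at 2 against 45.4% of the other summits and CTCTC at 1 against 41.5%.

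The words leading at the 200 strongest regions were found at 3 of the 6 thresholded genes. At the 200 thresholded regions of highest signal outside the CCT genes the leading word was ACCGTA, in 52.5% of summits and 1.25% of side windows. It was followed by ACGGTA in 32% of summits, by CCGTAC in 27.5% of summits, by CGAGAC in 24.5% of summits and by CGTACC in 23% of summits, and the first, the third and the last of these words overlap one another. At least 1 of them was in 62.5% of the 200 and in 23.4% of the 2174 thresholded regions outside the CCT genes. At cct-8 all of the overlapping words stood within 7 bp of the summit, and at cct-5 ACCGTA stood 17 bp away. The word CGAGAC was 10 bp from the summit of cct-1 and 20 bp from that of cct-4, and ACGGTA was 48 bp from that of cct-2. In all, 3 of the 6 thresholded genes and 5 of the 8 held one of these words, and cct-2 and cct-4, below the threshold, were among them.

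A longer run of letters, TCTCNNCAC, was shared by cct-1, cct-4 and cct-6 and was picked after the sequences had been seen. Counted on both strands within 50 bp of the summit, it was in 5.06% of the thresholded regions outside the CCT genes (110 of 2174), in 7% of the 200 strongest and in 1.40% of the side windows (61 of 4348). At each of the genes it overlaps a word given above. The signals of the 3 genes that hold it, 2975, 24.2 and 101.5, spanned nearly the range of the family. The letters are a description of these windows and do not mark a bound site.

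A heat shock element letter pattern was present near the strongest summit of nearly every CCT gene. TTCNNGAA, the tail-to-tail pair of units of the element bound by heat shock factor HSF-1, was found within 150 bp of the summit at 7 of 8 genes, all except cct-8, and at 5 of the 6 thresholded ones. It was in 15.3% of thresholded regions (334 of 2182), in 16% of the 200 strongest, and in 18.9% of windows of 301 bp centred 250 bp upstream of all protein-coding genes (3775 of 19973). In these sites, 20 bp of the ce11 plus strand from RefSeq, capitals mark the TTCNNGAA letters; none has a further unit at the spacing of the element, and the pattern reads the same on both strands.
cct-1, chrII:8185298-8185317: ccgattTTCTGGAAgcattt
cct-2, chrII:8927469-8927488: ttgagtTTCGAGAAggattt
cct-3, chrII:2232731-2232750: tcggttTTCGAGAAgaattg
cct-4, chrII:8283495-8283514: tagaatTTCTAGAAgaatta
cct-5, chrIII:4508520-4508539: aaaatcTTCTAGAAaaatgt
cct-6, chrIII:5855913-5855932: aatttaTTCTAGAAaataaa
cct-6, chrIII:5856076-5856095: acccttTTCGGGAAtaagac
cct-7, chrV:1872026-1872045: aattgtTTCGAGAAggaata
The sites lay from 19 bp (cct-2) to 131 bp (cct-3) from the summit, and the 8 letters were the same, TTCGAGAA, at cct-2, cct-3 and cct-7, and the same, TTCTAGAA, at cct-4, cct-5 and the first site of cct-6.

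The reverse arrangement, GAANNTTC, was at cct-1 and cct-8 and in 16% of thresholded regions. One or the other was therefore at 8 of 8 genes, against 27.3% of thresholded regions (596 of 2182) and 33.0% of the upstream windows of all genes (6596 of 19973). Among the other lists, TTCNNGAA was near the strongest summit of 3 of 5 prefoldin, 6 of 11 other cytosolic chaperone and 3 of 7 organelle chaperone genes. It was also at 11 of the 66 strongest regions of ribosomal protein genes (some genes share one) and at 3 of 23 proteasome genes. For actin and tubulin the count was 1 of 6, and for the heat-inducible list 0 of the 1 gene with a summit. A match in these letters says nothing of whether HSF-1 or LSY-2 was bound at it, which was not tested. The windows are shared with the neighbours, so the sites cannot be assigned to the CCT gene alone. That of cct-3 was 799 bp from the 5′ end of cct-3 and nearer to F54A3.6. The second site of cct-6 was 399 bp from cct-6 and inside alh-9 as annotated by Ensembl.

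Other promoter letters were looked up in the same windows. TATAAA was at none of the 6 thresholded summits and at cct-2 and cct-4, against 25.6% of thresholded regions. The E-box CACGTG (6.0% of thresholded regions), the E2F half-site TTCCCGC (5.36%) and the GC box GGGCGG (11.5%) were at none of the 8. The splice acceptor letters TTTCAG were at cct-1, cct-3 and cct-5 (34.5% of thresholded regions). A run of 6 T was at 5 of the 6 and 6 of the 8 (74.7%). Over 301 bp the GC content was 48.8% at cct-7 and between 29.6% (cct-4) and 38.5% (cct-8) at the other 7, where the thresholded regions had a median of 39.5% and quartiles of 34.6% and 45.5%.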

How the data were processed

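ChIP-seq regions of eGFP-LSY-2 from 2 biological replicates of 1 group were used. The authors called regions per replicate and for both replicates together on ce11 and ce10 against a control alignment, and thresholded them by IDR, per the deposited lists of files. Aligner, caller and software versions were not given in the sources used here. Each deposited signal is the caller's value for a region, not scaled between lists, so ranks and signals were read within a list. The deposited −log10 q-value served as description. The control library was not analysed here.

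Each gene's strongest ce11 region was taken from 2000 bp upstream of the 5′ end (Ensembl release 115) to the 3′ end, and the replicate region as the strongest with its summit inside it. Words were ranked without the 8 thresholded regions at CCT genes. The members and the lists were chosen with earlier results of these data known, so no test was made. The lists were drawn by gene symbol. The symbols hsp-16.11 and hsp-16.49 were not found by name, and hsp-16.1 and hsp-16.48 each name a pair of genes. The heat-inducible list thus keeps 9 genes. Named are all members, genes sharing their summits and up to 4 genes per chaperone or substrate list by signal. Also named are the genes whose promoter region is next above and below that of each member in signal. Genes of the chaperone and substrate lists with no summit were named after their values were seen. Alternatives were the ce10 list, other thresholds, windows, 5′ ends and word lengths, and each replicate alone. Python 3.11.15, numpy 2.4.6, pandas 2.3.3 and matplotlib 3.10.9 were used. The counts in windows, the choice of the strongest region and the word search passed 5 of 5 checks on simulated data. Other steps, such as the nearest 5′ end and the match of replicates, were not checked in this way.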

Additional observations from a re-analysis of the deposited data

How the results depend on the processing

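No paired analysis was possible because there is 1 group. The 2182 strongest regions of a single replicate in place of the thresholded list gave 6 to 7 CCT genes with a summit, and cct-2 was the one added in replicate 2. Of the other alternatives, the upper 50% of regions and a shorter and a longer upstream window gave 6 CCT genes as well. The ce10 list also gave 6, but its regions were matched to those of ce11 partly by signal. All listed regions, background included, gave 8, where 63.0% of all genes had one. A promoter window shortened at both ends gave 5, without cct-3.

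The strongest region of replicate 1 anywhere in the window of cct-3 had rank 575 in place of 1196. The count of genes whose own 5′ end was nearest rose from 0 to 1 with the first coding base and to 1 with RefSeq 5′ ends, both chosen after seeing the data. At alh-9 both are the same position, so this is the same change at cct-6, though it was tallied for each. In the upper 50% of regions prefoldin had 3 genes and actin and tubulin 3. Within the promoter window actin and tubulin had 3 and the heat-inducible list 0. CCT regions with a leading word numbered 1 with words of 6 bases, 5 with words of 5 bases and 3 with the words of the 200 strongest regions. The causes were not tested. Of all alternative values 66 stayed within the replicate spread or 1.5 times the count, and 9 moved, which are those given here. Some of the 66 could hardly move, so the tally is not a measure of robustness. In ce10, regions were matched by chromosome, width and nearly equal signal, so their agreement in signal follows from the match and is no separate check. The promoter window held the same strongest region for each of the 6 genes. All 6 of these regions were already in the upper 50% by rank. With 2 replicates and unknown depth, levels between neighbours in signal cannot be resolved.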
